A study of Rattus norvegicus with 27 samples.

Results

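Tail motor neurons with an intact spinal cord, sampled 21 or 60 days after a sham operation, were compared here as the baseline of a study of cord transection. They account for 11 of the 27 arrays, 6 at 21 days and 5 at 60 days, and were chosen by the sample titles alone. All were from male Wistar rats of unstated age whose vertebrae had been opened with the dura left whole, so no array came from an unoperated animal. Every rat, sham or transected, had received the retrograde tracer Fluorogold in muscle and peritoneum 5 to 7 days before the cord was frozen, and buprenorphine after surgery. Neurons that carried the tracer were cut by laser from 10 µm sections of sacral cord, 100 to 200 per sample in the sample labels and 50 to 200 in the design text, and their RNA was amplified in 2 rounds. The comparison groups, 8 arrays at each time, came from rats with the cord cut at S2. Each sample is labelled as a biological replicate, but none is tied to an animal, a litter or a hybridisation batch, so a p-value here reflects only how these samples scatter, which may be technical.

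Tail motor neurons are cholinergic cells that send axons from the sacral cord to the muscles of the tail. They carry a large neurofilament skeleton, respond to the trophic receptor Ret, and set their firing through sodium, calcium and potassium channels that descending serotonin and noradrenaline adjust. In a cord whose descending fibres are intact, their transcripts form the reference against which the effects of transection are read, and a drift of that reference over weeks would enter each such comparison at the later time.

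Values are log2 probe set signals on Affymetrix rat 230 2.0 arrays, and a difference of 1 is a 2-fold difference. Of the 12913 probe sets compared, 11880 carried the symbol of a single gene, and for each of the 9769 genes so named the single-gene probe set brightest on average in the sham arrays stood for it. The array medians lay between 6.32 and 6.41. Tests used limma with all 27 arrays in 4 groups and Benjamini-Hochberg adjustment over all probe sets. Replicates 1 and 4 at 60 days stood apart from the rest, and most differences are given with and without them.

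The first principal component of the sham arrays held 46.2% of the variance and was set by these arrays. Replicate 4 at 60 days scored 56.3 on it and replicate 1 scored 25.5, followed by 21-day replicate 6 at 6.02. The other 8 arrays lay between -18.8 and -3.81, with both times mixed. Correlations across probe sets were 0.904 to 0.951 for pairs with replicate 4 and 0.945 to 0.978 for replicate 1 with the 9 arrays other than replicate 4. Among 21-day arrays they were 0.967 to 0.986, and between 21-day arrays and 60-day replicates 2, 3 and 5 they were 0.972 to 0.987. Among 60-day replicates 2, 3 and 5 the correlations were 0.985 to 0.989. Pairs across the times thus spanned a range like that within 21 days once 60-day replicates 1 and 4 were set aside. No 21-day array was left out in turn, so the comparison is uneven. In replicate 4, 529 genes lay over 2-fold above and 324 over 2-fold below the median of the other 10 sham arrays. In replicate 1 these counts were 312 and 13, and in the other 9 arrays they did not exceed 64 and 48.

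**Figure D1:**
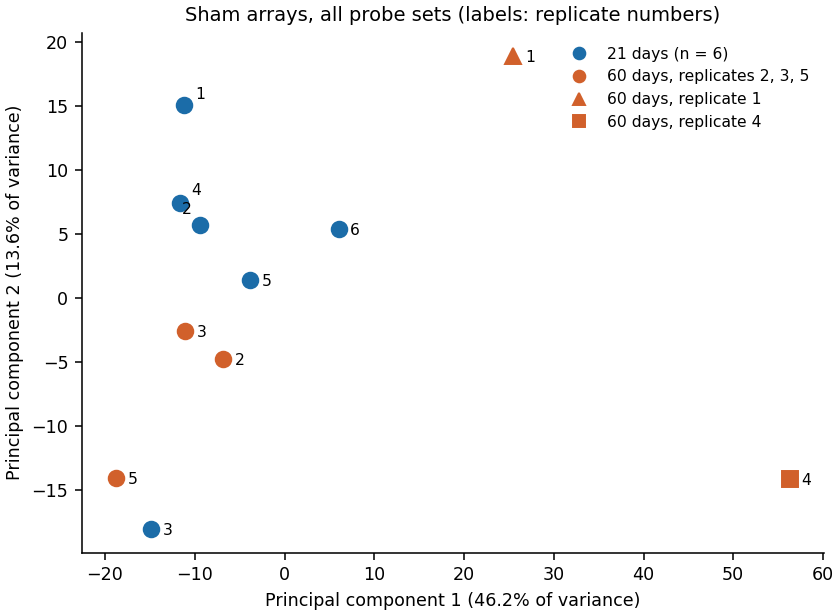
Scores of the 11 sham arrays on the first and second principal components of all 12913 probe sets (axes, with the percent of variance each holds). Points are single arrays numbered by replicate. Replicates 4 and 1 at 60 days lie far to the right at 56.3 and 25.5, and the other 60-day arrays lie among those of 21 days.

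Replicate 4 went against its label. The mean of the 18 measured motor neuron markers was 8.32 there and between 9.32 and 9.65 in the other 10 sham arrays, and 10 of the 18 lay over 2-fold below the median of those arrays. Prph, which encodes the peripheral neuron filament peripherin, was 9.78 in replicate 4 and 12.55 to 13.20 elsewhere. Ret, the receptor for trophic factors of the GDNF family, was 8.23 there and 11.09 to 12.19 elsewhere. Uts2, the peptide urotensin, was 9.44 there and 11.86 to 13.00 elsewhere.

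The same array was high for transcription factors of the forebrain. Lhx2, a regulator of cortical development, was 10.01 in replicate 4 and 4.99 to 5.85 in the other sham arrays. Bcl11b, which marks deep cortical projection neurons and striatal neurons, was 10.68 there against 5.11 to 6.78, and Emx2 was 8.38 there against 4.39 to 4.71. Over 15 such factors, a list added after the data were seen, the mean was 7.56 in replicate 4 and 5.51 to 5.89 elsewhere. Rab40b at 11.10, Frzb at 10.14 and Fam107a at 10.65 stood out in the same array. Its mean over 15 transcription factors of spinal position, most of them Hox genes, was 6.18 against 6.63 to 6.86. Hoxd10 was 6.68 there and 7.64 to 8.73 elsewhere, and Hoxc9 was 6.01 there and 6.86 to 7.67 elsewhere. The library labelled 60-day replicate 4 is kept in the values over all arrays, and the values without it stand beside them.

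Replicate 1 had a motor neuron marker mean of 9.32, below the 9.44 to 9.65 of the 21-day arrays, with 1 of the 18 over 2-fold lower. Calcb was 9.28 there and 10.03 to 11.30 at 21 days. Replicate 1 was the highest sham array for several other cell types. Its mean over 10 markers of meninges and fibroblasts was 8.08, against 5.70 to 6.91 in the other arrays. The collagen-binding proteoglycan Dcn was 9.05 there and 4.94 to 6.86 elsewhere, and Mgp, an inhibitor of calcification made by vessels and fibroblasts, was 10.08 there and 6.2 to 7.77 elsewhere. The means of the oligodendrocyte list (8.72, against 6.85 to 7.98), the astrocyte list (9.35, against 7.48 to 9.10) and the blood list (6.86, against 5.89 to 6.35) were also highest in replicate 1. Of the 21-day arrays, replicate 6 was the highest for the astrocyte list at 8.80 and the oligodendrocyte list at 7.98.

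**Figure D2:**
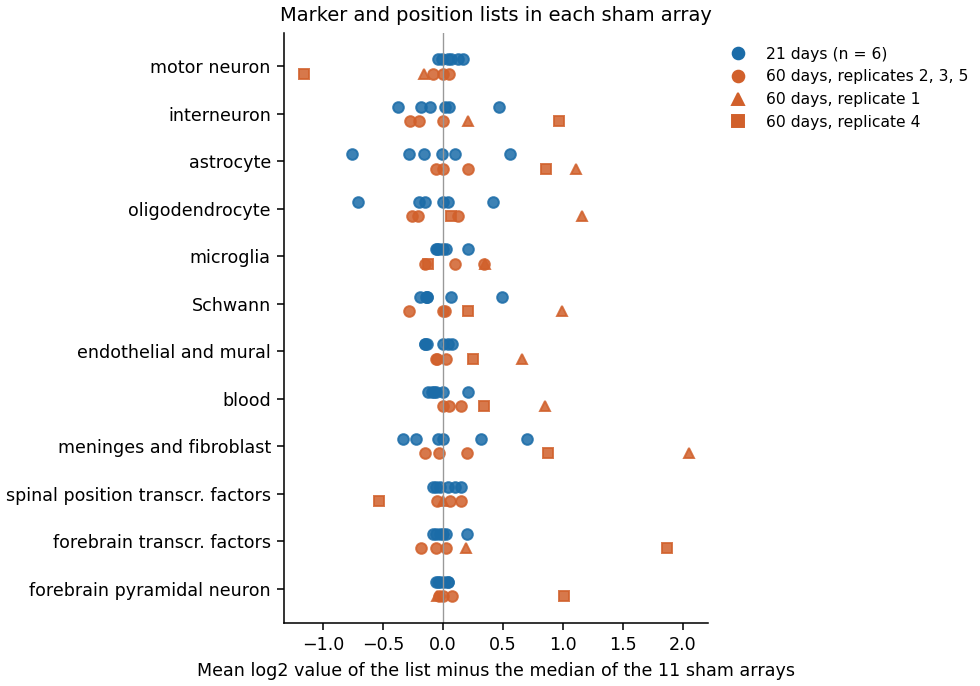
Mean log2 value of each marker or position list in each sham array, minus the median of that list over the 11 arrays (horizontal axis, log2). Blue points are 21 days and orange points 60 days, with replicate 1 as a triangle and replicate 4 as a square. Replicate 4 lies lowest for the motor neuron list and highest for both forebrain lists, and replicate 1 lies highest for meninges and fibroblasts.

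No probe set passed the limma test between 60 and 21 days. The count past an adjusted p of 0.05 was 0 of 12913 (0%), and the smallest adjusted p was 0.545, for Igf1. Without replicates 1 and 4 the count in limma was again 0 (0%), with a smallest adjusted p of 0.903. At an unadjusted p under 0.05 stood 513 probe sets (3.97%), 251 higher and 262 lower at 60 days, and 239 (1.85%) without those arrays, with 96 in both fits in the same direction. In 32 probe sets (0.248%) all 60-day arrays lay above every 21-day array, and in 33 (0.256%) all lay below. With limma's array weights, which give 60-day replicate 4 a weight of 0.297 against 0.661 to 2.69 for the other sham arrays, 2 probe sets passed: Ahsp, higher by 0.44 ± 0.0713 (SE; adjusted p = 0.0156), and Arhgap5, which fell by 0.81 ± 0.143 (adjusted p = 0.0309). Over the other alternatives their adjusted p in limma reached 1. In the sham arrays every value of both genes lay below the array medians of 6.32 to 6.41.

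The intervals show how large a difference could have gone unseen. For 12434 probe sets (96.3%) the whole 95% interval of the difference lay within 2-fold either way, and for 10302 (79.8%) it lay within 1.5-fold. Without replicates 1 and 4 the first count was 12574 (97.4%). With all arrays, the share within 2-fold was lower among probe sets above the median signal than over all. The median distance from the difference to either end of its interval was 0.293, or 0.331 without those arrays. The typical absolute difference was smaller than that, with a median of 0.0921, and the median signed difference was -0.004.

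The spread between arrays was also small for most probe sets. Its median SD was 0.163 at 21 days and 0.196 at 60 days, and 0.131 at 60 days without replicates 1 and 4. Among probe sets above the median signal it was larger, at 0.185 at 21 days and 0.254 at 60 days. The pooled SD within groups was under 0.5 for 93.8% of probe sets and over 1 for 73 of them, or 13 without those arrays. The 10 genes of largest spread were Slc1a3, Reg3b, Arg1, Lhx2, Lgi1, Reln, Fam107a, Bcl11b, Gad1 and Rab40b. In 8 of them, all but Reg3b and Arg1, the highest value was that of replicate 4, ahead of the next array by more than 2-fold. Gad1, which makes the inhibitory transmitter GABA, also varied among the other arrays, from 6.70 to 9.83.

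The mean difference exceeded 2-fold for 21 probe sets, 14 higher and 7 lower at 60 days, and for 6 without replicates 1 and 4. They stood for 16 named genes, of which 11 were higher and 5 lower, and 5 of the 21 turned sign without those arrays. Slc1a3, the glutamate transporter of astrocytes, was higher by 1.16 ± 0.561 over all arrays and -0.15 ± 0.407 without them. The matrix protein Reln went from 1.03 ± 0.530 to -0.40 ± 0.309. Arg1, an enzyme of arginine breakdown, and the membrane protein Tm4sf1 stayed past 2-fold, at -1.24 ± 0.854 and -1.14 ± 0.519. Gad1 was past it only without those arrays, at -1.12 ± 0.656. None of these passed the threshold in limma.

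**Figure D3:**
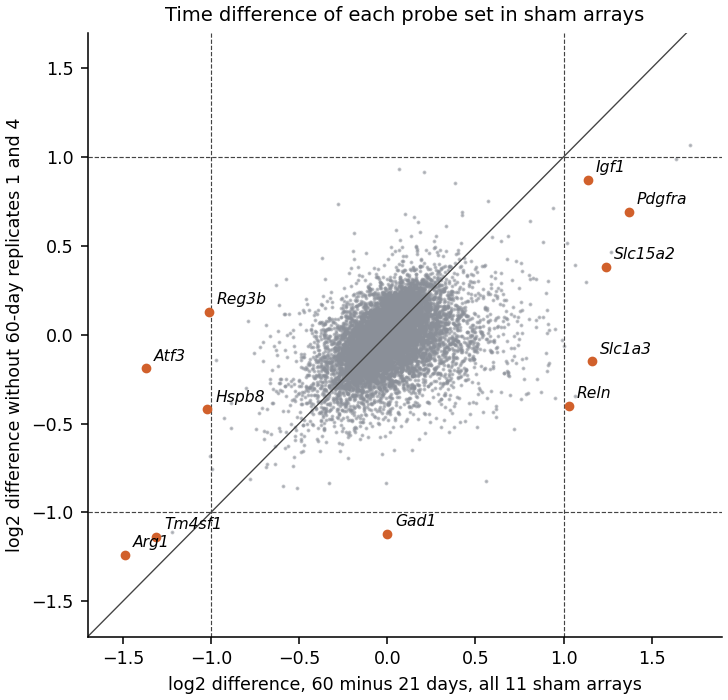
Difference between 60 and 21 days for each of 12913 probe sets, with all 11 sham arrays (horizontal axis, log2) and without 60-day replicates 1 and 4 (vertical axis, log2). The solid line marks equality and dashed lines mark 2-fold. Igf1 and Arg1 lie near the line, whereas Atf3, Slc1a3 and Reln lie far from it.

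Igf1 encodes an insulin-like growth factor that acts on motor neurons and is also made by glia. At 21 days it was 6.37 at the lowest, 6.98 at the median and 7.23 at the highest. The 60-day replicates 1 to 5 gave 8.96, 7.42, 7.87, 7.88 and 7.94. All 5 lay above every 21-day array, as in 0.248% of all probe sets, and replicate 1 was the highest. The means were 6.88 ± 0.334 (SD, n = 6) and 8.01 ± 0.568 (SD, n = 5), a difference of 1.14 ± 0.234 (SE) with an unadjusted p of 4.22e-05 and an adjusted p of 0.545 in limma. Without replicates 1 and 4 the difference was 0.87 ± 0.240. At the same 2 times the transected arrays differed by -0.21 ± 0.194, and the limma test of the difference between both operations gave 1.35 ± 0.304 with an adjusted p of 0.440.

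Ahsp, known as a chaperone of alpha-globin, had the second smallest p of the higher genes. Its 21-day values ran from 5.39 to 5.84 with a median of 5.69, and at 60 days they were 6.00, 6.09, 6.17, 5.90 and 6.17. All 60-day values lay above every 21-day value, as in 0.248% of all probe sets. Yet every value lay below the array medians of 6.32 to 6.41, where signals are faint. The difference was 0.40 ± 0.0888 over all arrays and 0.48 ± 0.104 without replicates 1 and 4. The 8 measured genes of the blood list had a median difference of 0.27, or 0.08 without replicates 1 and 4. At an unadjusted limma p under 0.05 stood 3 of them, all higher, and 0 without those arrays. Of all 9769 genes, 197 were higher and 214 lower at that p, and 176 in all without those arrays. In the blood list, the globin gene Hbb was higher by 1.06 ± 0.352 over all arrays and 0.39 ± 0.289 without replicates 1 and 4.

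Of the other 8 leading higher genes, several are known from glia, vessels or connective tissue. Pdgfra, the growth factor receptor of oligodendrocyte precursors and fibroblasts, was 6.05, 6.58 and 8.01 at the lowest, median and highest 21-day array, and 9.25, 8.03, 7.06, 9.0 and 7.16 at 60 days. Its highest values were those of replicates 1 and 4, and its groups overlapped. The difference of 1.37 ± 0.384 became 0.69 ± 0.380 without them. Slc15a2, a peptide transporter of astrocytes, went from 1.24 ± 0.368 to 0.38 ± 0.299, and Chi3l1, a secreted glycoprotein of reactive astrocytes, from 1.02 ± 0.244 to 0.52 ± 0.220. Icam2, an adhesion molecule of vessels, was higher by 0.76 ± 0.194 and then by 0.41 ± 0.186. Mgst1, a glutathione transferase of membranes, was less affected, at 0.81 ± 0.229 and 0.64 ± 0.261. Idh2, a mitochondrial isocitrate dehydrogenase, went from 0.59 ± 0.180 to 0.28 ± 0.183, Tmem179b from 0.48 ± 0.133 to 0.34 ± 0.152, and Nisch, the imidazoline-binding protein nischarin, from 0.36 ± 0.106 to 0.39 ± 0.128. In Icam2, Mgst1 and Nisch all 5 60-day arrays lay above every 21-day array, as in 0.248% of all probe sets. These genes were picked by smallest p. Every value of Nisch lay below the array medians of 6.32 to 6.41. Icam2 ran from 4.72 to 5.48 at 21 days, and only 60-day replicates 1 (6.73) and 4 (6.32) reached those medians. Astrocyte, oligodendrocyte and fibroblast markers were highest in the same replicate 1, and their part in these values was not tested.

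Nefl, the light neurofilament chain, was the motor neuron marker with the smallest p. It lay between 14.13 and 14.41 at 21 days, with a median of 14.31, and at 60 days at 14.14, 13.92, 14.06, 13.00 and 13.98. Replicate 4 was lowest by far, 3 of the other 4 lay below every 21-day array, and only replicate 1 fell within their range. The difference was -0.46 ± 0.14 over all arrays and -0.29 ± 0.110 without replicates 1 and 4. The medium and heavy chains, Nefm and Nefh, gave -0.33 ± 0.135 and -0.37 ± 0.134 over all arrays, and -0.16 ± 0.0937 and -0.19 ± 0.0946 without those arrays. None of the 3 passed limma's adjusted threshold.

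C2cd2, a protein with lipid-binding domains, led the lower genes with an unadjusted p of 0.00118. Its 21-day values ran from 9.84 to 10.83 with a median of 10.13, and at 60 days they were 9.34, 9.74, 9.88, 8.01 and 9.84. Replicate 4 was again the lowest. The difference was -0.93 ± 0.257, and -0.47 ± 0.220 without replicates 1 and 4. The other 2 probe sets of C2cd2 gave -0.24 ± 0.109 and -0.41 ± 0.120, and -0.07 and -0.23 without those arrays.

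Of the 10 leading lower genes, Arhgap5 and Mogat1 differed more without replicates 1 and 4. Arhgap5 was 5.28, 5.87 and 6.31 at the lowest, median and highest 21-day array, and 5.78, 4.86, 5.16, 5.57 and 5.05 at 60 days. Replicates 2, 3 and 5 lay below every 21-day array and the other two within the 21-day range. Every value of Arhgap5 lay below the array medians of 6.32 to 6.41. The difference was -0.59 ± 0.180 over all arrays and -0.85 ± 0.192 without those arrays. Mogat1, an enzyme of glycerolipid synthesis, gave -0.52 ± 0.156 over all arrays and -0.60 ± 0.186 without them. All its 60-day values (5.78 to 6.19) lay below those of 21 days (6.26 to 6.96), as in 0.256% of all probe sets. The fatty acid hydroxylase Cyp4a1 (-0.56 ± 0.158), the methionine synthase Mtr (-0.44 ± 0.136), the alanine aminotransferase Gpt2 (-0.50 ± 0.152), Vstm5 (-0.52 ± 0.157), Pagr1 (-0.54 ± 0.167) and Shisal2b (-1.0 ± 0.310) completed the 10 lower genes. Each of these 6 was nearer to 0 without replicates 1 and 4, where they stood in the same order at -0.43, -0.30, -0.29, -0.32, -0.37 and -0.76. Cyp4a1, at 4.83 to 6.20, also lay below the array medians in every sham array.

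Leaving out replicates 1 and 4 brought other genes to the front. Lgals3, the galectin of macrophages and stressed neurons, was 8.51, 8.29 and 8.58 in replicates 2, 3 and 5 and 7.21 to 8.01 at 21 days, a difference of 0.85 ± 0.249. Over all 5 replicates it was 0.39 ± 0.277, since replicate 4 was at 6.63. Dpysl4, a protein of growth cones, was higher by 0.48 ± 0.141 without those arrays and by 0.30 ± 0.132 with them. Slfn4 (-0.84 ± 0.256), Wdr89 (-0.62 ± 0.166), the cytoskeletal GTPase Septin7 (-0.55 ± 0.171) and the matrix protein Omd (-0.45 ± 0.132) were the genes of smallest p on the lower side next to Arhgap5. Over all 5 replicates the same genes gave -0.33 ± 0.289, -0.26 ± 0.178, -0.22 ± 0.179 and 0.21 ± 0.258, with replicate 1 the highest 60-day array for each. No adjusted p in that fit was under 0.903. Septin7, at 5.14 to 6.30, lay below the array medians of 6.32 to 6.41 in every sham array. Omd did too except in 60-day replicate 1 (7.00), and Wdr89 except in 60-day replicates 1 (6.40) and 4 (6.36).

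**Figure D4:**
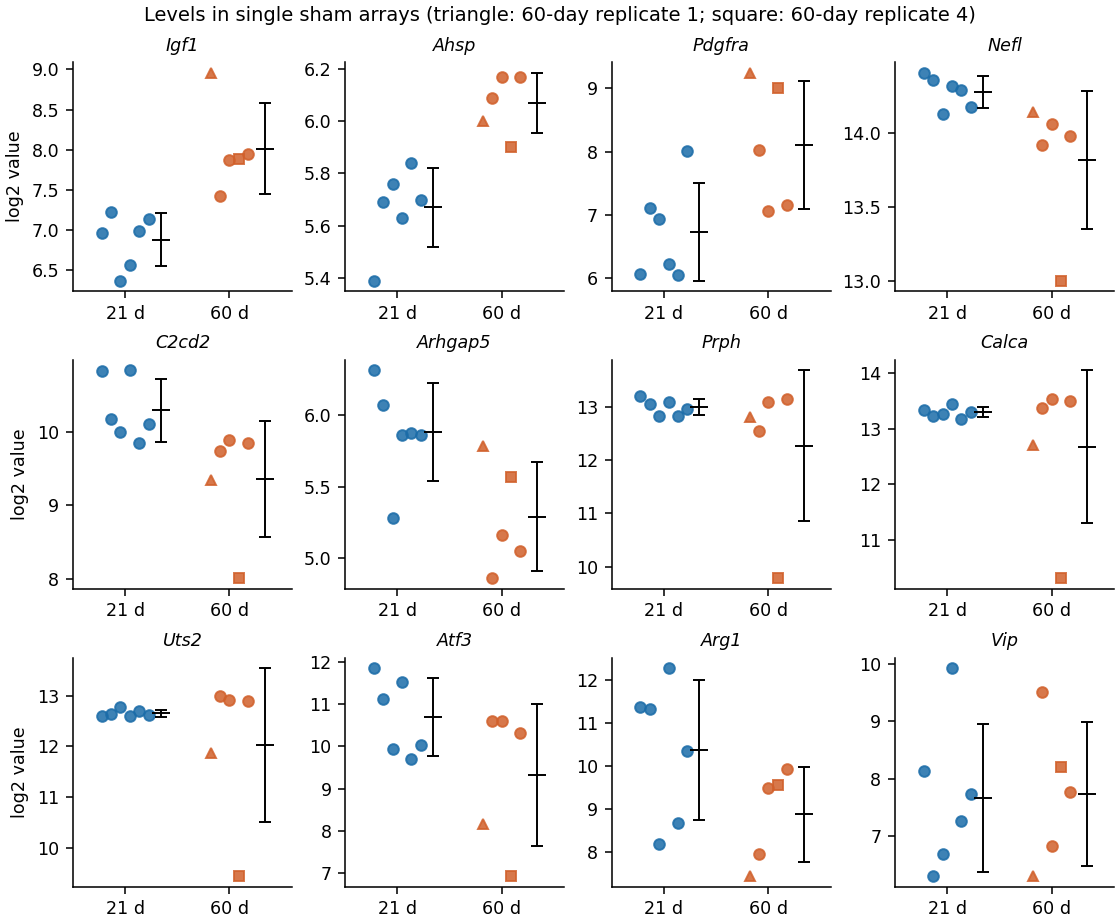
Log2 values of 12 genes in each sham array at 21 days (blue, n = 6) and 60 days (orange, n = 5), with the mean and SD beside each group (black). Igf1 and Ahsp do not overlap between the times. Prph, Calca and Uts2 are lowest in 60-day replicate 4 (square), and Arg1 and Vip vary widely within both groups.

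Over the 18 measured motor neuron markers the median difference was -0.41, or -0.09 without replicates 1 and 4, beside -0.0031 and -0.00033 over all genes. None of the 18 passed the threshold, and at an unadjusted p under 0.05 stood 6 markers, all lower at 60 days, and 1 without replicates 1 and 4. Over all 9769 genes, 197 were higher and 214 lower at that p, and 176 in all without those arrays. The list mean without those arrays lay between 9.40 and 9.53 at 60 days and between 9.44 and 9.65 at 21 days. Since the RNA was pooled from many cells, fewer cells of a type and less RNA per cell cannot be told apart here.

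For transmitter handling, Slc18a3, the vesicular acetylcholine transporter, was 7.11 to 7.52 at 21 days and 7.04, 6.86, 7.25, 5.43 and 7.21 at 60 days. The groups overlapped and only replicate 4 was far off. The difference was -0.49 ± 0.286, and -0.14 ± 0.276 without replicates 1 and 4. Slc5a7, the choline transporter that feeds acetylcholine synthesis, gave -0.45 ± 0.320 and -0.32 ± 0.321. Pcyt1a, an enzyme of phosphatidylcholine synthesis, had the smallest p of the acetylcholine list and did not depend on those arrays, at -0.39 ± 0.133 and -0.38 ± 0.156. Over the 19 measured genes of this list, 10 lay above 0 and 9 below, with a median difference of 0.01, or -0.03 without those arrays.

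The motor neuron peptides Calca, Calcb and Uts2 were lowest in replicate 4, whereas Npy at 8.94 and Pdyn at 9.92 were highest there, and 4 of the 26 measured neuropeptide genes lay over 2-fold above and 4 over 2-fold below the median of the other 10 arrays. Calca, the precursor of calcitonin gene-related peptide, lay between 13.18 and 13.45 at 21 days and at 12.71, 13.37, 13.53, 10.31 and 13.50 at 60 days. Replicates 2, 3 and 5 lay in or just above the 21-day range, replicate 1 below it and replicate 4 far below it. Its SD was 0.0949 at 21 days and 1.37 at 60 days, or 0.0842 without replicates 1 and 4. The difference was -0.62 ± 0.413, and 0.17 ± 0.321 without those arrays. Calcb, the second gene of this peptide, went from -0.97 ± 0.362 to -0.14 ± 0.261, and Uts2 from -0.63 ± 0.364 to 0.28 ± 0.126. Prph went from -0.72 ± 0.343 to -0.07 ± 0.147 and Ret from -0.69 ± 0.461 to 0.06 ± 0.360.

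The homeobox factor Isl1, used in motor neuron specification, lay between 5.79 and 6.33 in all 11 arrays, with a difference that rounded to 0 (SE 0.110), or 0.10 ± 0.126 without replicates 1 and 4. These values lay near or below the array medians of 6.32 to 6.41. At such faint signal a difference near 0 does not show that Isl1 was stable. The neuronal splicing factor Rbfox3, whose protein is the NeuN antigen, gave 0.15 ± 0.233 and then 0.13 ± 0.276, and the nicotinic receptor subunit Chrna4 gave 0.05 ± 0.116 and then 0.11 ± 0.135. Uchl1, a neuronal deubiquitinase, gave -0.36 ± 0.197, and -0.13 ± 0.206 without replicates 1 and 4. Mnx1, Ache and Gap43 had no single-gene probe set and were not analysed here.

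Genes known from axon injury were variable in these sham neurons. Atf3, a transcription factor induced when axons are damaged, was 9.70 at the lowest, 10.58 at the median and 11.85 at the highest 21-day array. At 60 days it was 8.16, 10.59, 10.60, 6.93 and 10.31. Replicates 2, 3 and 5 lay within the 21-day range, and replicates 1 and 4 were low. The difference was -1.37 ± 0.609, and -0.19 ± 0.564 without replicates 1 and 4.

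Reg3b, a secreted lectin of regenerating neurons, lay between 11.42 and 12.63 at 21 days and at 11.20, 12.21, 12.05, 7.43 and 12.23 at 60 days. The 60-day values apart from replicate 4 lay in or close to the 21-day range. The difference was -1.01 ± 0.976, and 0.13 ± 1.020 without replicates 1 and 4. Arg1 behaved differently, since its spread was as large at 21 days: 8.18 at the lowest, 10.85 at the median and 12.28 at the highest, against 7.44, 7.96, 9.49, 9.57 and 9.93 at 60 days. Its 4 highest values were all at 21 days, and the groups overlapped. The difference was -1.49 ± 0.740, and -1.24 ± 0.854 without those arrays. The peptide Vip varied over a similar range, from 6.31 to 9.92 at 21 days and from 6.32 to 9.51 at 60 days, with a difference of 0.06 ± 0.543, or 0.36 ± 0.612 without those arrays.

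Over the 33 measured genes of the axon injury list, 0 passed the threshold, 23 lay below 0 and 10 above, and the median difference was -0.17. Of all 9769 genes 4963 lay below 0 and 4806 above. Without replicates 1 and 4 the median was -0.002. Against the median of the other 10 sham arrays, replicate 4 lay over 2-fold lower in 12 of the 33 and over 2-fold higher in 2, and replicate 1 over 2-fold lower in 5 and higher in 2. Tm4sf1 had the smallest p of this list, at -1.31 ± 0.441. It was 6.64, 8.61 and 9.51 at the lowest, median and highest 21-day array and 7.2, 7.03, 7.49, 6.43 and 7.19 at 60 days, so that 5 of the 6 21-day arrays lay above every 60-day array.

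Channels and receptors that govern firing gave 0 members past the threshold in any list. Kcna1, a potassium channel subunit of axons, lay between 10.05 and 10.38 at 21 days and at 10.09, 9.50, 9.77, 8.68 and 9.64 at 60 days. Only replicate 1 reached the 21-day range. The difference was -0.66 ± 0.223 and stayed at -0.56 ± 0.227 without replicates 1 and 4. Over the 37 potassium, HCN and TRP channel genes the median difference was 0.01, or -0.02 without those arrays, with 20 above 0 and 17 below.

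Among 12 sodium channel genes, Scn4b, a beta subunit linked to resurgent current, was 11.88 to 12.25 at 21 days and 11.91, 11.69, 11.93, 9.90 and 11.73 at 60 days. Replicate 4 was the lowest. The difference was -0.60 ± 0.224, and -0.25 ± 0.126 without replicates 1 and 4. The beta subunit Scn3b was 12.71 in replicate 4 and 8.21 to 9.65 elsewhere, with a difference of 0.88 ± 0.50 over all arrays, 0.52 ± 0.398 without both arrays and 0.20 without replicate 4 alone. Scn9a, an alpha subunit, was 6.28 in replicate 4 and 7.52 to 9.89 elsewhere, and gave -0.52 ± 0.498 over all arrays, -0.10 ± 0.507 without both arrays and -0.02 without replicate 4 alone. The 23 calcium channel genes had a median difference of 0.01, or 0.03 without replicates 1 and 4. Cacng2, which guides AMPA receptors to the membrane, gave -0.13 ± 0.290, or 0.00 ± 0.342 without those arrays.

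No transmitter receptor passed the threshold. Over the 25 monoamine receptors, through which descending serotonin and noradrenaline act, the median difference was -0.04, or 0.03 without replicates 1 and 4. All 25 had a 95% interval within 2-fold either way, as did 9387 of all 9769 genes. The list mean of the receptors was 5.73 to 5.84 at 21 days and 5.65 to 5.80 at 60 days, below the array medians of 6.32 to 6.41. At such faint signal a narrow interval does not show that receptor expression was stable. Htr2a and Htr2c, serotonin receptors that excite motor neurons, gave -0.04 ± 0.109 and -0.08 ± 0.100, and 0.02 ± 0.129 and -0.09 ± 0.121 without replicates 1 and 4. Htr2b had the smallest p, at -0.44 ± 0.199 or -0.23 ± 0.221 without those arrays, with values of 4.91 to 6.32 at 21 days and 4.56 to 5.61 at 60 days. The 28 genes of ionotropic glutamate receptors and their partners had a median of -0.02, or -0.003 without those arrays. The 19 of GABA and glycine receptors and chloride transport had 0.02, or 0.01 without those arrays. Gria2, the AMPA receptor subunit that limits calcium entry, was 11.57 in replicate 4 and 7.99 to 8.87 elsewhere, with a difference of 0.67 ± 0.370, or -0.15 ± 0.178 without replicates 1 and 4. Gabrb1, a GABA receptor subunit, was also highest in replicate 4, at 9.81 against 6.59 to 8.19, and went from 0.71 ± 0.362 to 0.16 ± 0.345. The glycine receptor subunit Glra2 went from 0.62 ± 0.324 to -0.07 ± 0.202. The chloride channel Clcn3 gave -0.22 ± 0.287, and -0.29 ± 0.342 without those arrays.

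Trophic factors and their receptors, 29 genes, had a median difference that rounded to 0, or 0.04 without replicates 1 and 4. At an unadjusted p under 0.05 stood 2 genes higher and 2 lower, beside 197 and 214 of all 9769 genes. Il6st, the signalling subunit shared by receptors of the CNTF and interleukin-6 family, was 7.12, 7.47 and 7.96 at the lowest, median and highest 21-day array and 7.26, 6.86, 7.03, 6.79 and 6.71 at 60 days. Only replicate 1 reached the 21-day range. The difference was -0.56 ± 0.211, and -0.63 ± 0.248 without replicates 1 and 4. The neurotrophin Ntf3 was 8.39 in replicate 4 and 4.65 to 5.48 elsewhere, with a difference of 0.90 ± 0.354 that became 0.24 ± 0.183. Gfra1, the GDNF co-receptor that acts with Ret, went from -0.62 ± 0.267 to -0.11 ± 0.212.

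Motors of axonal transport carry cargo between the cell body and the terminal. Of 20 such genes 0 passed the threshold and 17 had differences below 0, with a median of -0.11, or -0.08 without replicates 1 and 4. Of all 9769 genes 4963 lay below 0 and 4806 above. At an unadjusted p under 0.05 stood 2, both lower, and 0 without those arrays, beside 197 higher and 214 lower of all 9769 genes. Kif5c, a kinesin heavy chain of neurons, was 8.94, 9.60 and 9.74 at the lowest, median and highest 21-day array and 9.20, 9.25, 8.88, 7.95 and 9.33 at 60 days. The groups overlapped and replicate 4 was lowest. The difference was -0.58 ± 0.228, and -0.35 ± 0.229 without replicates 1 and 4. The 19 genes of synaptic vesicles and release had a median of 0.02, or 0.06 without those arrays. All 19 intervals lay within 2-fold, as did those of 9387 of all 9769 genes. Stmn2 and Map1b, which regulate microtubules in axons, gave -0.35 ± 0.201 and -0.36 ± 0.156 over all arrays, and 0.06 ± 0.110 and -0.12 ± 0.111 without those arrays.

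Some genes that respond to activity or hormones were highest in replicate 4. The immediate early gene Egr1 was 10.24 there and 6.39 to 8.21 elsewhere, and the orphan nuclear receptor Nr4a3 was 9.22 there and 5.84 to 6.38 elsewhere. Their differences were 0.57 ± 0.650 and 0.66 ± 0.341 over all arrays, and -0.36 ± 0.652 and 0.00 ± 0.160 without replicates 1 and 4. Hsd11b1, which regenerates active glucocorticoid, was 9.15 in replicate 4, 8.53 in replicate 1 and 7.40 to 7.77 elsewhere, and went from 0.52 ± 0.232 to 0.04 ± 0.202. The 22 activity genes had a median of 0.06, the 16 clock genes 0.08, the 16 of the glucocorticoid and androgen response 0.04 and the 25 of cell death and p53 -0.04. Without replicates 1 and 4 these medians were, in the same order, -0.01, 0.045, 0.043 and -0.016.

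No gene of the metabolic and housekeeping groups passed the threshold. The 67 genes of oxidative phosphorylation had a median difference of -0.01, or -0.03 without replicates 1 and 4, and all 67 intervals lay within 2-fold. The same held for all 32 proteasome subunits, all 31 genes of glycolysis and the citric acid cycle and all 21 of cholesterol synthesis. Such an interval was also found for 9387 of all 9769 genes, so these counts do not set the lists apart. The proteasome median was -0.02, or 0.018 without replicates 1 and 4, and that of glycolysis and the citric acid cycle 0.01, or -0.007. The cholesterol synthesis median was -0.16. In the cholesterol list 16 genes lay below 0 and 5 above, and its median was -0.13 without replicates 1 and 4. Of all 9769 genes 4963 lay below 0 and 4806 above. Mvd, an enzyme of the mevalonate pathway, gave -0.56 ± 0.177 over all arrays and -0.28 ± 0.181 without those arrays. Heat shock proteins and chaperones were similar, with 18 of 23 below 0 and a median of -0.15 in both fits, led by the small heat shock protein Hspb8 at -1.02 ± 0.321, or -0.42 ± 0.204 without replicates 1 and 4. Fdft1, the squalene synthase of the same pathway as Mvd, lay between 8.11 and 8.57 at 21 days and between 7.23 and 8.08 at 60 days. All its 60-day arrays thus lay below every 21-day array, as in 0.256% of all probe sets. The difference was -0.42 ± 0.157, or -0.28 ± 0.163 without those arrays. Of 42 cytosolic ribosomal proteins 34 lay above 0, with a median of 0.11, or 0.03 without those arrays.

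**Figure D5:**
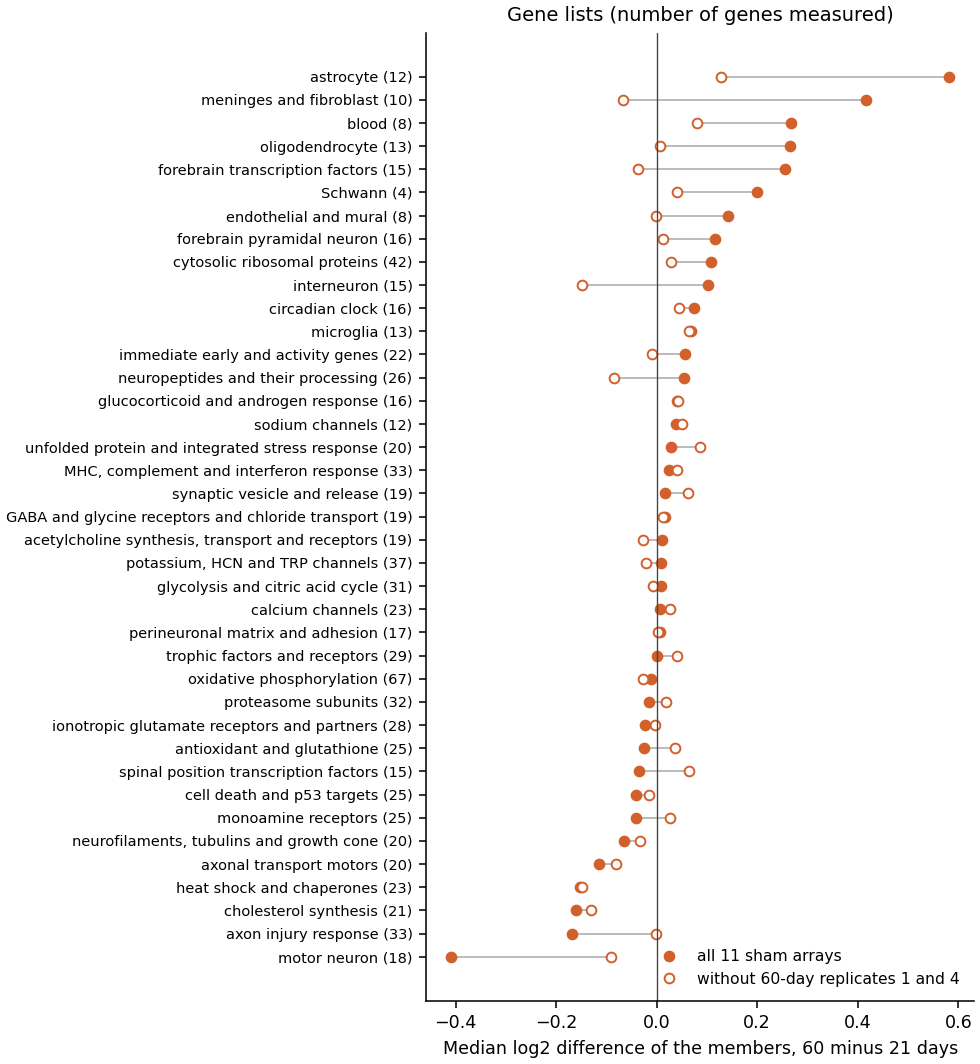
Median log2 difference between 60 and 21 days over the members of each gene list, with all 11 sham arrays (filled) and without 60-day replicates 1 and 4 (open). Numbers in brackets are genes measured. The astrocyte list at 0.58, the meninges and fibroblast list at 0.42 and the motor neuron list at -0.41 lie farthest from 0, and come to 0.13, -0.07 and -0.09 without those arrays.

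Markers of other cells gave the largest list differences. The 12 astrocyte genes had a median of 0.58, with 5 at an unadjusted p under 0.05, all higher, and 0 past the adjusted threshold, beside 197 higher and 214 lower of 9769 genes at the same unadjusted p. Without replicates 1 and 4 the median was 0.13 and 0 had an unadjusted p under 0.05. Gfap, the filament protein of astrocytes, was 9.05, 9.41 and 10.29 at the lowest, median and highest 21-day array, and 11.07, 10.73, 9.93, 10.60 and 10.15 at 60 days. Replicates 1, 2 and 4 lay above every 21-day array. The difference was 0.94 ± 0.375, and 0.71 ± 0.439 without replicates 1 and 4.

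The 13 oligodendrocyte genes went from a median of 0.27 to 0.01 without those arrays, and the 10 genes of meninges and fibroblasts from 0.42 to -0.07. Mbp, a protein of myelin, was 11.31 in replicate 1, 10.40 in 21-day replicate 6 and 7.25 to 9.11 elsewhere, a difference of 0.61 ± 0.436, and of -0.04 ± 0.408 without replicates 1 and 4. The 13 microglial genes had a median of 0.07, and 0.06 without replicates 1 and 4. Aif1, the microglial protein Iba1, gave 0.15 ± 0.449, and -0.22 ± 0.507 without those arrays. The lipid carrier Apoe, made by astrocytes and microglia, gave 0.32 ± 0.268 and -0.09 ± 0.282. At 21 days Apoe was 6.39 in replicate 6 and 5.71 to 5.92 in the other arrays, beside array medians of 6.32 to 6.41. With signal this faint, its values say little about Apoe expression. The list mean of the astrocyte genes ran from 7.48 to 8.80 at 21 days and from 8.18 to 9.35 at 60 days, that of the oligodendrocyte genes from 6.85 to 7.98 and from 7.30 to 8.72, and that of the microglial genes from 6.36 to 6.63 and from 6.27 to 6.77. The part of these cells in the differences was not tested.

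Set against the 16 transected arrays, no probe set passed the test of a time effect that differs between the operations: the count past the limma threshold was 0 of 12913 (0%), with a smallest adjusted p of 0.338 and 905 at an unadjusted p under 0.05. The transected arrays themselves gave 11 of 12913 probe sets past the limma threshold between the times, and 1706 at an unadjusted p under 0.05. They number 8 at each time, against 6 and 5 sham arrays, so 11 against 0 does not show a difference between the operations. Across all probe sets, which are not independent, the time differences of both operations correlated at 0.106, or at -0.0462 without replicates 1 and 4, and the 2 differences share no array. With array weights the limma test of the difference called 3 probe sets, of Ahsp (0.60 ± 0.108), the actin-binding Pfn1 (-0.71 ± 0.133) and the GTPase Arf6 (-0.65 ± 0.120), each at an adjusted p of 0.0419. They were named after their values were seen.

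The control probe sets for both ends of long transcripts, a measure of RNA integrity and of amplification, differed little for beta-actin. Its 3' signal exceeded the 5' signal by 2.28 ± 0.229 at 21 days (SD, n = 6) and 2.22 ± 0.182 at 60 days (SD, n = 5), with a two-sided exact permutation p of 0.628. For GAPDH the excess was 2.97 ± 0.218 and 2.57 ± 0.247, a difference of -0.40 with an exact p of 0.026, or 0.0519 adjusted over the 2 controls. It was -0.43 without replicates 1 and 4. The part of this difference in the time comparison was not tested.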

How the data were processed

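The deposited values are log2 signals of 12919 probe sets, made by the authors with RMA per the submitters' processing notes. Which RMA software was run, and how these probe sets were selected, is not given in the sources used here. All 6 beta-actin and GAPDH controls were left out, and no filter on signal was applied. RMA normalizes arrays to one another, so a shift shared by all transcripts would not be seen. Arrays have no count depth, and their number limits the precision.

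The two-sided test was limma's moderated test (version 3.58.1, R 4.3.3), fitted with default settings to 27 arrays of 4 groups without covariates. The adjusted p threshold was 0.05. Values after ± are standard errors of the fit unless marked SD. Means of lists are averages of log2 values over the probe sets standing for their genes. The forebrain lists were chosen after the data were seen, and all members, lists and rules were chosen with earlier results of these data known. Genes were named by rule: the 10 of smallest p per direction, 5 per direction without replicates 1 and 4, the 10 of largest spread, 5 per direction in which each of those arrays lay farthest from the others, up to 4 members per list by p and up to 4 by range, and a fixed set. Gene symbols came from the platform annotation, with 11849 identifiers found in a RefSeq table. Of the other probe sets, 320 list several genes and 713 none, and none of these is named. Alternatives covered the arrays in the fit, array weights, a replicate block, a filter on signal, quantile normalization, median centring, variance shrinkage, the choice of probe set and each sham array left out. Simulated data were used to test the fit. Exact tests ran in scipy 1.17.1 and numpy 2.4.6 under Python 3.11.15, and plots were drawn with matplotlib 3.10.9.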

Additional observations from a re-analysis of the deposited data

Results flagged for a closer look

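In 31 instances 1 array of a group lay far from the others of that group by Dixon's test. Chance gives this in about 1 of 20 groups, and 204 were examined, but that rate does not hold for genes and lists chosen because an array lies apart or the spread is large, such as Lhx2, Bcl11b, Rab40b, Reg3b, Reln and the forebrain lists. No explanation was tested.

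Replicate 4 at 60 days accounted for 19. The list means were 8.32 for motor neuron markers, 9.46 for neurofilaments, tubulins and growth cone genes and 8.85 for axonal transport motors, all lowest there. They were 6.56 for potassium, HCN and TRP channels, 7.56 for forebrain transcription factors and 7.51 for forebrain pyramidal neuron genes, all highest there. Single genes lowest in that array were C2cd2 at 8.01, Nefl at 13.00, Nefm at 12.54, Nefh at 13.17, Prph at 9.78, Reg3b at 7.43, Calca at 10.31, Slc18a3 at 5.43, Scn9a at 6.28 and Uchl1 at 7.07. Lhx2 at 10.01, Bcl11b at 10.68 and Rab40b at 11.10 were highest there.

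Replicate 1 at 60 days was highest for the oligodendrocyte list at 8.72, for Mgst1 at 8.86 and for Mbp at 11.31. Of the 21-day arrays, replicate 6 was highest for the blood list at 6.22, Reln at 8.46 and Apoe at 6.39, and lowest for Gpt2 at 6.69. Replicate 4 of 21 days was highest for the microglia list at 6.63, and replicate 5 was lowest for ribosomal proteins at 9.84. Replicate 1 of 21 days was highest for Mtr at 7.24 and lowest for Clcn3 at 5.85, and replicate 3 was highest for Shisal2b at 8.43.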

How the results depend on the processing

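The count of probe sets past limma's threshold stayed at 0 under every alternative run except array weights, which gave 2 between the times and 3 in the comparison with transected arrays. The count of intervals within 2-fold ran from 12162 to 12640 with 1 sham array left out, and was 6078 with probe sets above the median signal, where fewer are tested. At an unadjusted p under 0.05 the count was 214 without 60-day replicate 4, 860 without 60-day replicate 3, 907 without 60-day replicate 5, 992 with array weights, 327 above the median signal and 813 with sham arrays alone and without 60-day replicates 1 and 4. Both counts above the median signal rest on only part of the 12913 probe sets, so they cannot be set directly against the counts over all. As shares of those brighter probe sets, intervals within 2-fold were rarer than over all, and unadjusted p under 0.05 more common. The median SD between 21-day arrays was 0.148 to 0.166 with 1 array left out and 0.185 above the median signal. That of 60-day arrays was 0.166 to 0.204, 0.254 above the median signal and 0.131 without replicates 1 and 4. The beta-actin difference ran from -0.13 to 0.01 with 1 array left out, and was 0.01 without 21-day replicate 1 or 60-day replicate 3. That of GAPDH ran from -0.49 to -0.34, with an adjusted exact permutation p of 0.0317 without 21-day replicate 5 and 0.0381 without 60-day replicate 1, within a range of 0.0317 to 0.114.

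Some differences changed sign, among them Reg3b from -1.01, Calca from -0.62 and Mbp from 0.61. Without 60-day replicates 1 and 4, with all groups or sham arrays alone, Omd was at -0.45, Reg3b at 0.13, Calca at 0.17, Mbp at -0.04, Aif1 at -0.22, Isl1 at 0.10, Cacng2 at 0.00, Apoe at -0.09 and Htr2a at 0.02. With array weights Omd was at -0.24, Aif1 at -0.06, Isl1 at 0.02, Cacng2 at 0.05 and Htr2a at 0.04. Quantile normalization put Isl1 at 0.00. Another probe set gave 0.00 for Calca, -0.07 for Mbp and 0.23 for Htr2a. With 1 array left out, the range was -0.20 to 0.40 for Omd, -0.39 to 0.51 for Vip, -0.13 to 0.36 for Aif1, -0.07 to 0.07 for Isl1 and -0.09 to 0.02 for Htr2a. The cause was not tested.

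The labels do not say whether equal replicate numbers pair the samples, and the correlations below cannot settle it. Deviations of same-numbered arrays correlated at -0.148 to 0.155, and those of other numbers at -0.467 to 0.439. With the replicate number as a block, 0 probe sets passed and 12378 intervals lay within 2-fold. The spread between a few arrays limits what can be seen, and faint probe sets have little signal over background.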
